A study of Mus musculus with 131 samples.

Results

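The Dlk1-Dio3 domain is a cluster of imprinted genes on distal mouse chromosome 12. It was described in bisulfite sequencing of 2 embryonic stem cell (ESC) lines and of mouse embryonic fibroblasts (MEF). The members were the 200 bp windows from chr12:109400001-109760000 (mm10, the same coordinates as GRCm38) with a CpG value in all 3 libraries. They numbered 1339 of the 1800 windows of this 360 kb region, out of 7638465 such windows in the genome. Windows with a value in a single library numbered 1395 in Gjb2-35delG ESCs, 1441 in Actin-RFP ESCs and 1413 in MEF. The Gjb2-35delG ESC line, labelled p7, carries the 35delG deletion in Gjb2, a gap junction gene, which the design text gives on both alleles. The Actin-RFP ESC line, labelled p10, carries an Actin-RFP transgene, which marks its cells red. The MEF were wild type and labelled p2. All 3 were of strain C57BL/6J, so the parental alleles could not be separated and each level is a mean over both. Each group was 1 library of cultured cells, so no value has a replicate, no test between libraries was possible, and line, genotype and passage cannot be told apart.

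Imprinted genes are expressed from the allele of 1 parent. In this domain Dlk1, Rtl1 and Dio3 are known to be expressed from the paternal chromosome, and the noncoding genes Meg3, Rian and Mirg, with the small RNAs they host, from the maternal chromosome. Control lies in a germline differentially methylated region between Dlk1 and Meg3 (IG-DMR), which is methylated on the paternal allele and not on the maternal one. The Meg3 promoter gains its own paternal methylation after fertilization. A region of this kind reads near 50% when both alleles are counted together. In cultured ESCs the domain is known for unstable imprints, with gain of methylation at both regions in some lines.

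RefSeq annotates 89 genes that overlap the region: 2 protein-coding genes, 6 long noncoding RNAs, 60 microRNAs, 19 snoRNAs and 2 pseudogenes. Dlk1 (109452485 to 109463336), a membrane protein of the Notch ligand family, and Rtl1 (109564900 to 109604418), a retrotransposon-derived gene needed in the placenta, are the protein-coding genes. Meg3 (109540996 to 109571729) and Rian (109603945 to 109661716) are long noncoding RNAs; Rian hosts snoRNAs. Mirg (109734981 to 109749458) is the host RNA of many of the microRNAs. Gm34081 (109493125 to 109540149) is a long noncoding RNA that fills much of the stretch between Dlk1 and Meg3. Dio3, an enzyme that inactivates thyroid hormone, lies 19.23 kb beyond the right flank used here.

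The promoter sequences on which the levels turn are shown from RefSeq (GRCm38.p6), from 250 bases before to 50 bases after the gene start, 5′ to 3′, with each CpG in capitals. The Meg3 sequence (chr12:109540746-109541045, plus strand) holds 13 CpGs. A Gm34081 start (chr12:109526220-109526519, minus strand) holds 6 CpGs, and it is shown because it lies inside the IG-DMR segment described below. The Dlk1 sequence (chr12:109452573-109452872, plus strand) holds 9 CpGs. The median over 32851 promoters of this table was 7 CpGs.
Meg3: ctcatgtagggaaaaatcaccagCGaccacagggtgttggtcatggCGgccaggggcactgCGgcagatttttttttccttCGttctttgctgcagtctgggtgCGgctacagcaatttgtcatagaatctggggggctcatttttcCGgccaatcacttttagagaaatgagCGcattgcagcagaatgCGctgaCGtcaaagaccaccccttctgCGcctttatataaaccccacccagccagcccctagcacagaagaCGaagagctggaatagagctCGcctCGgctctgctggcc
Gm34081: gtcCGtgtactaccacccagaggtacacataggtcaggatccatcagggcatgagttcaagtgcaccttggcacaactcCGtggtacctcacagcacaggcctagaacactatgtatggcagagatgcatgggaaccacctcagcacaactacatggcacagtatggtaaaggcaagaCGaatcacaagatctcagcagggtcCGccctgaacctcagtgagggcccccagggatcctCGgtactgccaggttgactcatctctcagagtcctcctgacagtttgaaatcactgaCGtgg
Dlk1: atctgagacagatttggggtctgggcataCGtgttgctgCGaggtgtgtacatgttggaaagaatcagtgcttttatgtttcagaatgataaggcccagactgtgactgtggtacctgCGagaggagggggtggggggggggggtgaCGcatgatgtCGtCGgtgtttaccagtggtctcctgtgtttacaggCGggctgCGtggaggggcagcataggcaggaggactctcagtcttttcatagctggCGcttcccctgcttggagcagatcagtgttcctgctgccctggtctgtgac

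The Meg3 sequence held 1 match to TGCCGC, the hexamer that ZFP57 binds when methylated, and 1 match to TGACGTCA, the cAMP response element. Both motifs were searched on both strands, and the matches do not overlap. Of all promoters in the table, 11.6% held the hexamer and 1.79% the response element. Neither was found in the Gm34081 and Dlk1 sequences shown. Over the windows that touch the Meg3 sequence the level was 49.9% in Gjb2-35delG ESCs, 30.9% in Actin-RFP ESCs and 54.8% in MEF. Over those of the Gm34081 sequence it was 56.5% in Gjb2-35delG ESCs, 34.4% in Actin-RFP ESCs and 76.0% in MEF. Over those of the Dlk1 sequence it was 51.9% in Gjb2-35delG ESCs, 6.02% in Actin-RFP ESCs and 25.99% in MEF, from 59, 98 and 135 calls. All 3 sequences had their lowest level in Actin-RFP ESCs, and the Dlk1 sequence, unlike the other two, had its highest in Gjb2-35delG ESCs.

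A level is the authors' mean methylated fraction of the CpG cytosines in a window, here in percent, and the level of a region is the mean over its windows with the SD over windows. The libraries held 288 M, 319 M and 317 M calls for Gjb2-35delG ESCs, Actin-RFP ESCs and MEF. A window had a median of 27, 28 and 29 calls. Intervals given below are 95% Wilson intervals, or Newcombe intervals for differences, on pooled calls, and they cover counting error only. The labels were set against marker promoters: the starts of Pou5f1, Zfp42 and Nanog, genes of pluripotency, were at 2.56% to 4.15% in Gjb2-35delG ESCs, 2.19% to 4.35% in Actin-RFP ESCs and 44.1% to 76.7% in MEF. Of the mesenchymal genes, the start of Col1a2 was at 43.4% in Gjb2-35delG ESCs, 28.2% in Actin-RFP ESCs and 15.6% in MEF. That of Twist1 was at 14.1% in Gjb2-35delG ESCs, 8.59% in Actin-RFP ESCs and 6.15% in MEF, so it set Actin-RFP ESCs little apart from MEF. Dppa4, Col1a1 and Thy1 were also planned as markers and have no value here.

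Over the whole domain the Gjb2-35delG ESCs were close to MEF and the Actin-RFP ESCs far below. The mean level was 72.7% (SD 15.7, 1339 windows) in Gjb2-35delG ESCs, 45.6% (SD 16.5) in Actin-RFP ESCs and 78.6% (SD 20.5) in MEF. From pooled calls, the difference from MEF was -5.56 points (-6.04 to -5.08) in Gjb2-35delG ESCs and -32.1 points (-32.6 to -31.6) in Actin-RFP ESCs. The genome as a whole stood at 67.6% in Gjb2-35delG ESCs, 38.5% in Actin-RFP ESCs and 79.1% in MEF. Actin-RFP ESCs were low across the genome as well as in the domain.

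The domain differed little from its surroundings. The 500 kb flanks (1652 windows on the left and 1873 on the right) averaged 71.0% in Gjb2-35delG ESCs, 42.8% in Actin-RFP ESCs and 79.2% in MEF. The domain minus the flanks came to 1.64 points in Gjb2-35delG ESCs, 2.74 points in Actin-RFP ESCs and -0.57 points in MEF. The sides were not alike. Against the left flank, which holds Begain and nearly all of Wdr25, both protein-coding, the domain was higher by 3.68 points in Gjb2-35delG ESCs, 6.94 points in Actin-RFP ESCs and 1.37 points in MEF. Against the right flank, which holds no annotated protein-coding gene, it differed by -0.15 points in Gjb2-35delG ESCs, -0.97 points in Actin-RFP ESCs and -2.28 points in MEF. With flanks of 1000 kb the gap widened to 6.65 points in Gjb2-35delG ESCs, 5.25 points in Actin-RFP ESCs and -2.08 points in MEF.

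**Figure D1:**
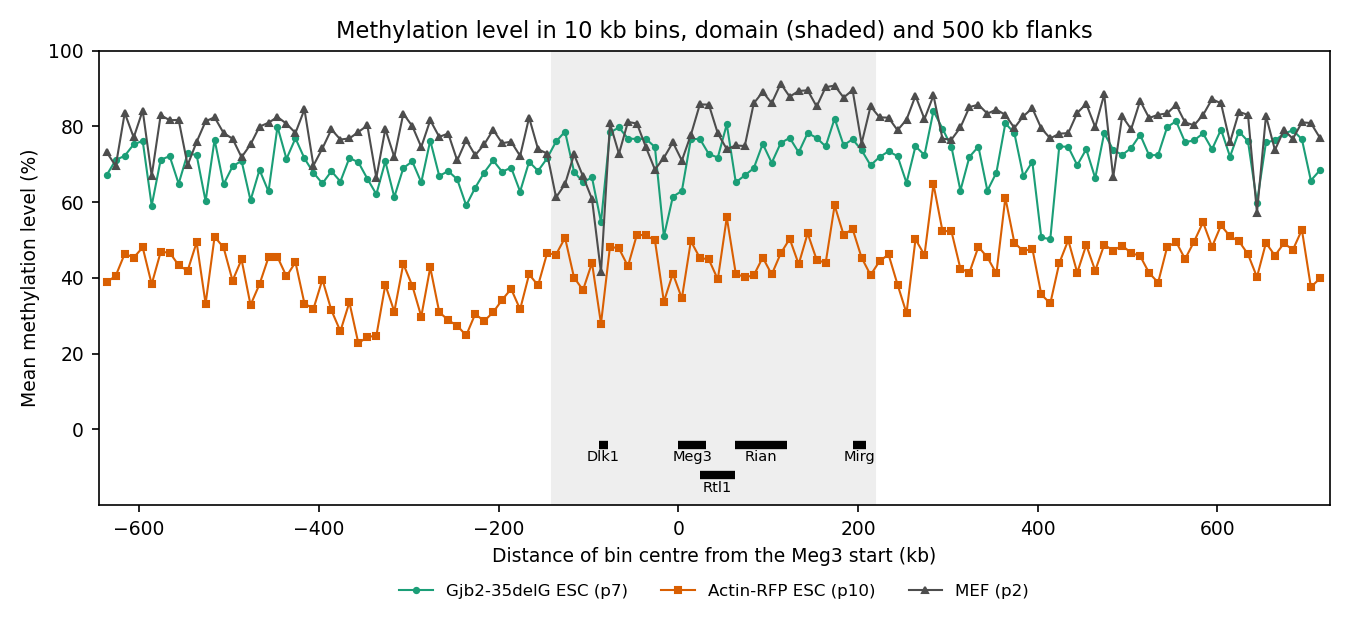
Mean methylation level (%) of 10 kb bins against distance from the Meg3 start (kb) in Gjb2-35delG ESCs, Actin-RFP ESCs and MEF, with the domain shaded and gene bodies as black bars. Actin-RFP ESCs run below both other libraries in every domain bin. The lowest bin of Gjb2-35delG ESCs within the domain, at 50.97%, is centred at -16.0 kb from the Meg3 start.

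Along the domain, 36 bins of 10 kb ranged from 50.97% to 82.1% in Gjb2-35delG ESCs, from 27.95% to 59.2% in Actin-RFP ESCs and from 41.4% to 91.3% in MEF. The lowest bin of Actin-RFP ESCs and of MEF was the one that holds the Dlk1 start (chr12:109450001-109460000). The lowest of Gjb2-35delG ESCs was elsewhere, at chr12:109520001-109530000, which holds most of the IG-DMR segment. In that bin Gjb2-35delG ESCs were 20.8 points below MEF, the widest such gap among the 36 domain bins. Actin-RFP ESCs were 17.2 points below Gjb2-35delG ESCs there, the narrowest gap of the 36. Single flank bins went further in both, to -28.8 points for Gjb2-35delG ESCs minus MEF and -15.0 points for Actin-RFP ESCs minus Gjb2-35delG ESCs. The gap between Actin-RFP ESCs and Gjb2-35delG ESCs had a median of -27.99 points over the domain bins and -28.7 points over 98 flank bins with at least 20 windows. Gjb2-35delG ESCs exceeded MEF in 8 of the 36 domain bins and in 7 of the 98 flank bins; Actin-RFP ESCs exceeded MEF in 0 of either.

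Levels from 30% to 70%, called near 50% here, were common in Actin-RFP ESCs everywhere. They were found in 458 domain windows (34.2%) in Gjb2-35delG ESCs, against 39.8% of all windows in the genome. In Actin-RFP ESCs they were found in 994 (74.2%), against 60.1% in the genome. In MEF they were found in 266 (19.9%), against 18.6% in the genome. In the flanks the shares were 33.9% in Gjb2-35delG ESCs, 68.5% in Actin-RFP ESCs and 19.3% in MEF. The domain's shares in Gjb2-35delG ESCs and MEF were thus within 1 point of those of the flanks.

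Windows at least 30 points below MEF made up 8.29% of the domain in Gjb2-35delG ESCs, against 14.4% of the genome. In Actin-RFP ESCs they made up 61.7%, against 71.3% of the genome. Windows at least 30 points above MEF made up 6.57% in Gjb2-35delG ESCs, against 2.58% of the genome and 3.12% of the flanks. In Actin-RFP ESCs they made up 0.747%, against 0.279% of the genome. Actin-RFP ESCs were at least 30 points below Gjb2-35delG ESCs in 41.7% of domain windows, against 48.4% of the genome. In the flanks, windows at least 30 points below MEF made up 9.87% in the Gjb2-35delG line and 64.9% in the Actin-RFP line. Both lines thus had fewer such windows in the domain than in the genome, with shares close to those of the flanks, while windows far above MEF were more frequent in Gjb2-35delG ESCs than in either.

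A window kept its level near 50% where both MEF and the ESC line were from 30% to 70%. Such windows were 10.5% of the domain in Gjb2-35delG ESCs, against 10.3% of the genome, and 13.4% in Actin-RFP ESCs, against 8.23% of the genome. Of the 266 domain windows near 50% in MEF, 53.01% were also near 50% in the Gjb2-35delG line and 67.3% in the Actin-RFP line. In the flanks these shares were 50.95% for the Gjb2-35delG line and 56.5% for the Actin-RFP line, and in the genome they were 55.4% and 44.2% in the same order. Of all domain windows, 34.2% were near 50% in the Gjb2-35delG line and 74.2% in the Actin-RFP line. In the Actin-RFP line the 266 windows were thus near 50% no more often than the domain as a whole. The mean level of the 266 windows was 65.6% in Gjb2-35delG ESCs, 37.6% in Actin-RFP ESCs and 54.6% in MEF. All windows of the genome near 50% in MEF had the same order, at 59.3% in Gjb2-35delG ESCs, 29.4% in Actin-RFP ESCs and 57.0% in MEF. These windows were chosen by their level in MEF, so their order is a description only.

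**Figure D2:**
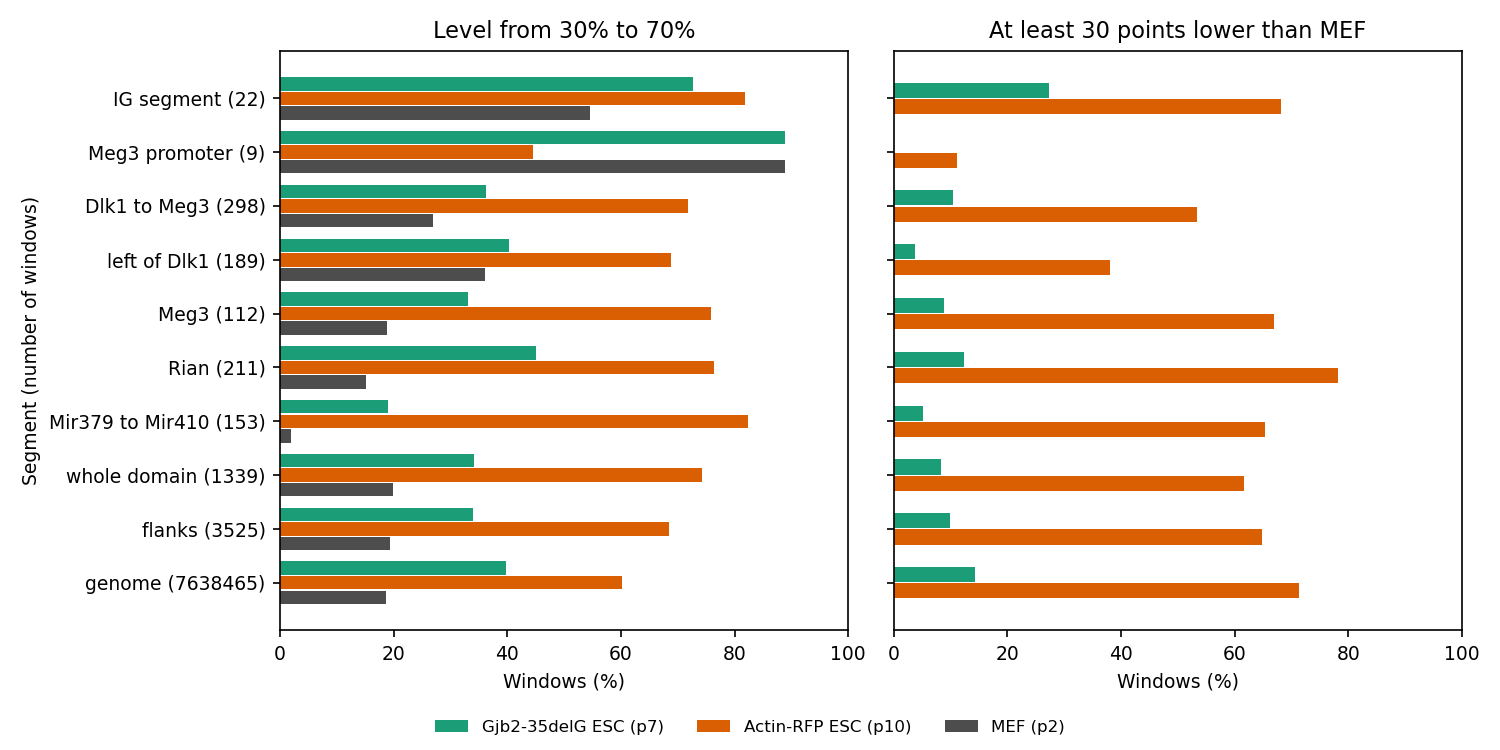
Share of windows (%) with a level from 30% to 70% (left) and at least 30 points below MEF (right) in segments of the domain, the flanks and the genome, for Gjb2-35delG ESCs, Actin-RFP ESCs and, on the left, MEF. Of the segments plotted within the domain, the IG segment and the Meg3 promoter have the highest shares near 50% in MEF, at 54.5% and 88.9%, and in Gjb2-35delG ESCs, at 72.7% and 88.9%.

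From Dlk1 to Meg3 the level was 71.5% (SD 18.4, 298 windows) in Gjb2-35delG ESCs, 45.8% (SD 17.2) in Actin-RFP ESCs and 75.4% (SD 19.7) in MEF. The pooled difference from MEF was -4.86 points (-5.92 to -3.81) in Gjb2-35delG ESCs and -29.4 points (-30.5 to -28.4) in Actin-RFP ESCs. This stretch was not uniform. Its first 237 windows, from Dlk1 up to the IG-DMR segment, averaged 75.2% in Gjb2-35delG ESCs, 47.4% in Actin-RFP ESCs and 76.0% in MEF. The 34 windows between the IG-DMR segment and Meg3 averaged 62.6% in Gjb2-35delG ESCs, 42.2% in Actin-RFP ESCs and 76.3% in MEF. On average Gjb2-35delG ESCs were within 1 point of MEF from Dlk1 up to the IG-DMR segment and below it towards Meg3. The average of that first part mixes 2 kb bins above and below MEF. Its bins chr12:109521201-109523200 and chr12:109523201-109525200, next to the IG-DMR segment, were at -23.3 and -30.6 points from MEF.

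MEF had dips of its own between Dlk1 and the IG-DMR segment, and the places named here were picked by their values. In the bin chr12:109473201-109475200 the level was 79.4% in Gjb2-35delG ESCs, 45.6% in Actin-RFP ESCs and 47.1% in MEF. In the bin chr12:109511201-109513200, at the 3′ end of the long noncoding RNA Gm34017, it was 75.1% in Gjb2-35delG ESCs, 42.4% in Actin-RFP ESCs and 50.7% in MEF. At the start of Gm34017 (chr12:109509312-109509611) it was 76.3% in Gjb2-35delG ESCs, 42.5% in Actin-RFP ESCs and 41.3% in MEF, from 37, 171 and 141 calls. In these places MEF and Actin-RFP ESCs stood within 10 points of each other and Gjb2-35delG ESCs above both.

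The IG-DMR is not annotated in the tables used here, and it was taken from knowledge of the locus as the segment 10 to 15 kb upstream of the Meg3 start, called the IG segment. Its level was 48.7% (SD 16.99, 22 windows) in Gjb2-35delG ESCs, 37.1% (SD 9.41) in Actin-RFP ESCs and 71.7% (SD 13.9) in MEF. From 2042, 2362 and 2564 pooled calls, the methylated share was 50% (47.8 to 52.2) in Gjb2-35delG ESCs, 38.2% (36.2 to 40.2) in Actin-RFP ESCs and 71.3% (69.5 to 73.0) in MEF. The pooled difference from MEF was -21.3 points (-24.1 to -18.5) in Gjb2-35delG ESCs and -33.1 points (-35.7 to -30.4) in Actin-RFP ESCs. Among the segments of the domain measured here, this was the one where Gjb2-35delG ESCs lay furthest below MEF. The drop was not confined to it, since the 2 kb bin chr12:109523201-109525200, just upstream, was at -30.6 points from 5 windows. Actin-RFP ESCs departed from MEF in the IG segment by about as much as over the whole domain.

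All 22 windows of the IG segment had a level below MEF in both ESC lines. In 1 of them, chr12:109529001-109529200, the share of calls was above MEF in Gjb2-35delG ESCs, at 51.4% against 50% in MEF, from 35 and 32 calls. None was at or above MEF in Gjb2-35delG ESCs, against 25% of windows in the genome and 31.4% in the domain. None was at or above MEF in Actin-RFP ESCs, against 3.94% in the genome and 7.47% in the domain. The 95% intervals of Gjb2-35delG ESCs and MEF overlapped in 7 of the 22 windows (31.8%), against 83.3% in the genome and 81.3% in the domain. Those of Actin-RFP ESCs and Gjb2-35delG ESCs overlapped in 17 of the 22 (77.3%), against 62.4% in the genome and 59.4% in the domain. These comparisons of overlap, and those of windows at or above another library, were chosen after the values were seen. The IG windows were deep, with medians of 78 calls in Gjb2-35delG ESCs, 86.5 in Actin-RFP ESCs and 91 in MEF, and deeper windows have narrower intervals.

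By window means, the gap between the ESC lines was smaller here than over the domain. Actin-RFP ESCs minus Gjb2-35delG ESCs was -11.7 points over the IG segment, against -27.1 points over the domain. Actin-RFP ESCs were at or above Gjb2-35delG ESCs in 5 of the 22 windows (22.7%), against 5.58% in the genome and 3.51% in the domain. Of the 2 kb bins between Dlk1 and Meg3 with at least 5 windows, 14 had Gjb2-35delG ESCs from 30% to 70%. In 3 of the 14 Actin-RFP ESCs were at most 10 points below Gjb2-35delG ESCs (-7.64 to -3.02 points), against 2.44% of 408490 such bins in the genome. The 3 bins were chr12:109523201-109525200, just upstream of the IG segment, and chr12:109527201-109529200 and chr12:109529201-109531200, in it. This limit was also chosen after the values were seen. In the other 35 bins with at least 5 windows the gap ran from -39.8 to -18.1 points.

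**Figure D3:**
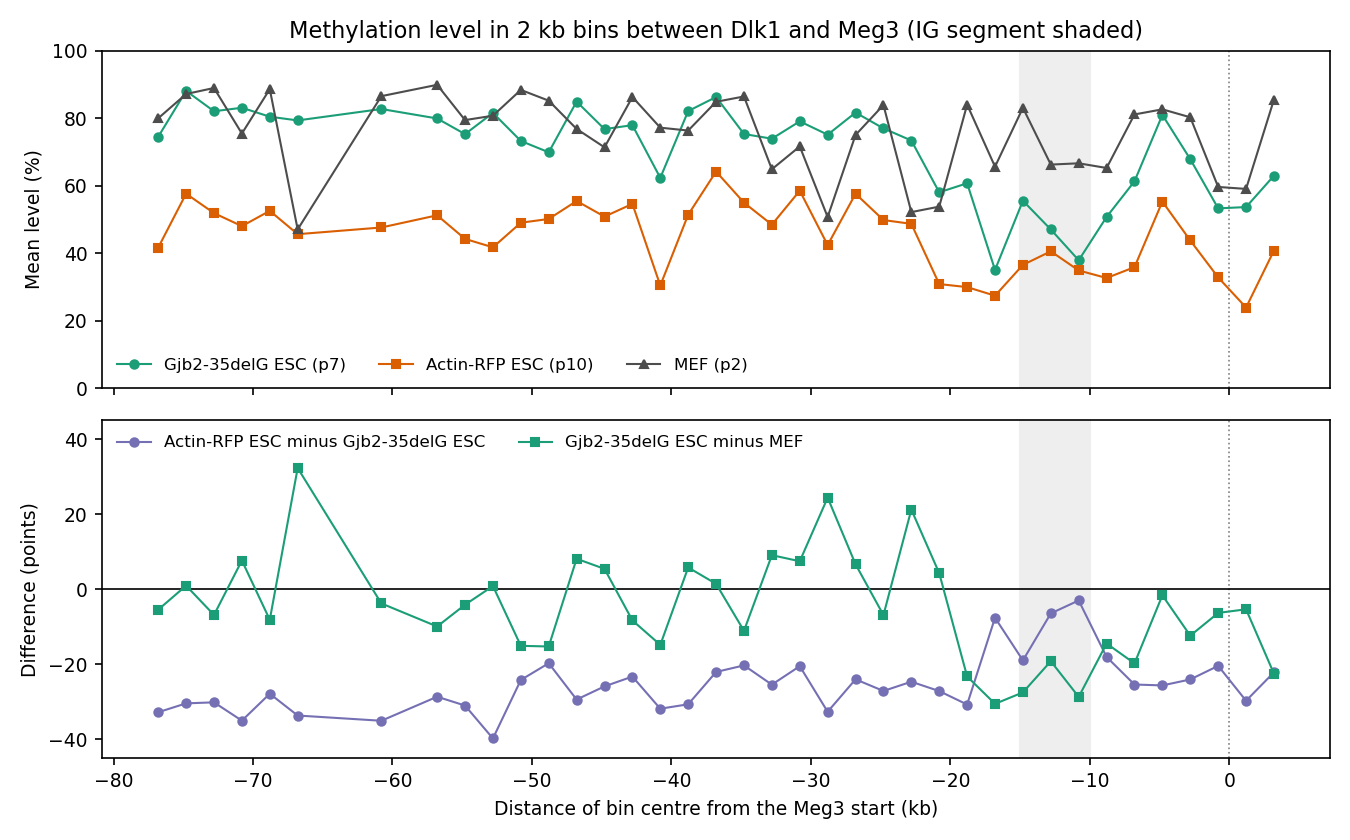
Mean methylation level (%, top) and differences (points, bottom) in 2 kb bins with at least 5 windows, against distance from the Meg3 start (kb, dotted line), with the IG segment shaded. Around the shaded segment Actin-RFP ESCs minus Gjb2-35delG ESCs comes as near to 0 as -3.02 points, while Gjb2-35delG ESCs minus MEF lies below 0.

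Within the IG segment the libraries followed different courses. The 7 windows farthest from Meg3 (chr12:109526001-109527400) ran from 49.04% to 77.3% in Gjb2-35delG ESCs, 30.9% to 53.5% in Actin-RFP ESCs and 68.3% to 94.4% in MEF. The window with the most CpGs, chr12:109528201-109528400, held 32 cytosines with calls in each library. It stood at 32.8% in Gjb2-35delG ESCs (309 calls), 33.4% in Actin-RFP ESCs (342 calls) and 44.4% in MEF (300 calls), and all 3 libraries were within 12 points of each other. The window chr12:109527801-109528000 was at 34.6% in Gjb2-35delG ESCs, 47.7% in Actin-RFP ESCs and 64.5% in MEF, with 45 to 57 calls a library. Its neighbour chr12:109528001-109528200 was at 36.3% in Gjb2-35delG ESCs, 46.4% in Actin-RFP ESCs and 62.5% in MEF, with 102 to 156 calls. In these 2 windows Actin-RFP ESCs were the nearer to 50%, with intervals that overlap those of Gjb2-35delG ESCs.

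The count of IG windows near 50% was 16 of 22 (72.7%) in Gjb2-35delG ESCs, 18 (81.8%) in Actin-RFP ESCs and 12 (54.5%) in MEF. Over the domain these shares were 34.2% in Gjb2-35delG ESCs, 74.2% in Actin-RFP ESCs and 19.9% in MEF, and over the genome 39.8%, 60.1% and 18.6% in the same order. The share of Actin-RFP ESCs was thus close to that of its domain. Of the 12 near 50% in MEF, 10 were also near 50% in the Gjb2-35delG line and 8 in the Actin-RFP line. Windows at least 30 points below MEF numbered 6 (27.3%) in the Gjb2-35delG line and 15 (68.2%) in the Actin-RFP line. The share in Gjb2-35delG ESCs was above that of the domain and the genome, and the share in Actin-RFP ESCs lay between that of the domain and the genome. With windows of at least 3 CpGs the share in Gjb2-35delG ESCs was 13.3%.

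The CpG-dense windows give a scale for these levels. Across the genome, 16106 windows had at least 20 CpG cytosines with calls in every library, and 864 of them were near 50% in MEF. These 864 averaged 35.6% (SD 25.8) in Gjb2-35delG ESCs, 17.9% (SD 14.9) in Actin-RFP ESCs and 51.1% (SD 11.8) in MEF. Actin-RFP ESCs were at or above Gjb2-35delG ESCs in 8.10% of them. The densest IG window, which stood at 33.4% in Actin-RFP ESCs, was above the mean of such windows in that line and near it in Gjb2-35delG ESCs, at 32.8%. The domain held 8 windows of this density, of which 4 were near 50% in MEF. Of these 4, 3 were also near 50% in Actin-RFP ESCs, so the densest IG window was not alone in this. The window chr12:109400401-109400600, at the left edge, was at 86.7% in Gjb2-35delG ESCs, 64.2% in Actin-RFP ESCs and 54.7% in MEF. The window chr12:109459801-109460000, inside Dlk1, was at 61.2% in Gjb2-35delG ESCs, 22.3% in Actin-RFP ESCs and 59.9% in MEF.

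**Figure D4:**
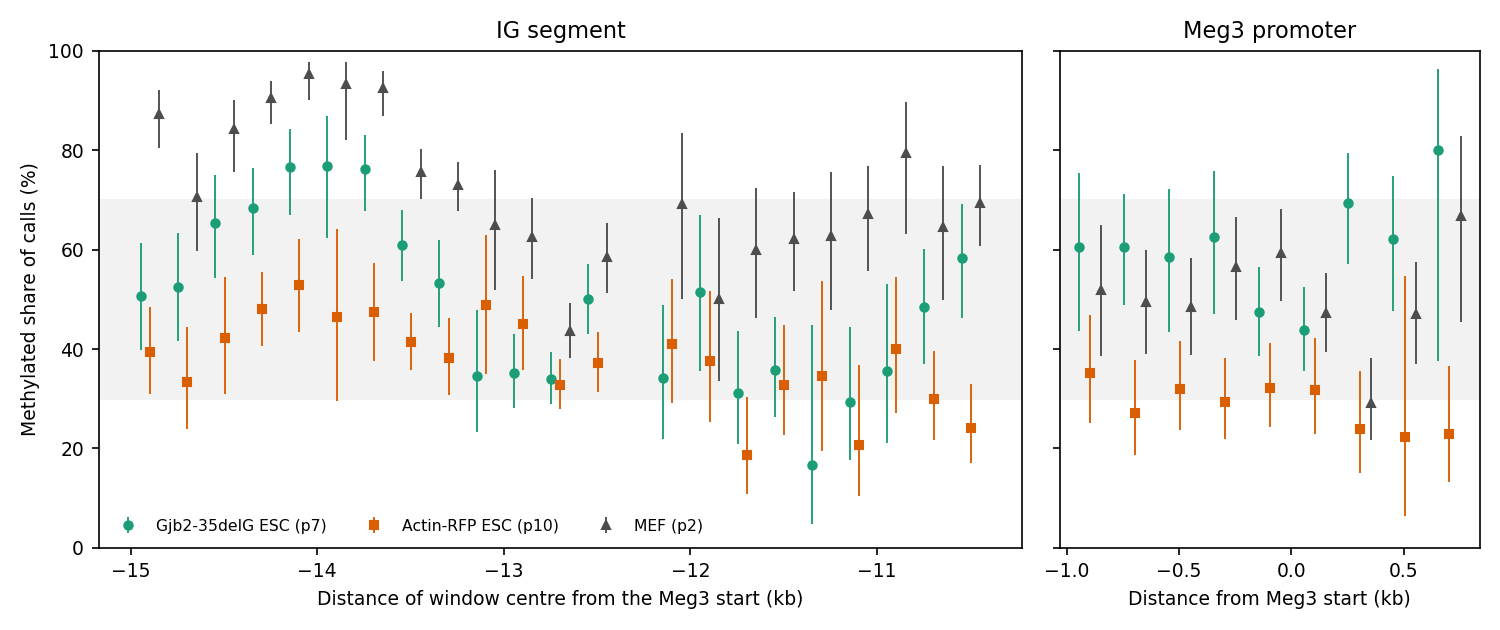
Methylated share of calls (%) in single 200 bp windows of the IG segment and the Meg3 promoter, against distance from the Meg3 start (kb), with 95% Wilson intervals, points of the 3 libraries set slightly apart and the range from 30% to 70% in grey. Gjb2-35delG ESCs and Actin-RFP ESCs run together below MEF in the middle of the IG segment, and Gjb2-35delG ESCs and MEF run together above Actin-RFP ESCs over most of the Meg3 promoter.

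At the Meg3 promoter, within 1000 bp of the start, Gjb2-35delG ESCs were not below MEF and Actin-RFP ESCs were. The level was 60.5% (SD 10.9, 9 windows) in Gjb2-35delG ESCs, 28.3% (SD 4.33) in Actin-RFP ESCs and 51.1% (SD 11.01) in MEF. From 545, 691 and 789 pooled calls, the methylated share was 55.05% (50.8 to 59.2) in Gjb2-35delG ESCs, 29.8% (26.5 to 33.3) in Actin-RFP ESCs and 48.4% (44.9 to 51.9) in MEF. The pooled difference from MEF was 6.63 points (1.17 to 12.02) in Gjb2-35delG ESCs and -18.6 points (-23.4 to -13.7) in Actin-RFP ESCs. Gjb2-35delG ESCs thus stood near 50% with MEF, while Actin-RFP ESCs stood near 30%. The difference in Gjb2-35delG ESCs rested on 1 window, chr12:109541201-109541400, chosen after the values were seen as the one furthest above MEF in Gjb2-35delG ESCs: without it the pooled shares were 53.2% in Gjb2-35delG ESCs and 51.6% in MEF, a difference of 1.58 points (-4.24 to 7.38). In Actin-RFP ESCs the pooled difference without it was -21.2 points (-26.3 to -15.9). The sign in Gjb2-35delG ESCs also depended on the distance taken: within 2000 bp of the start the difference was -7.88 points in Gjb2-35delG ESCs and -30.5 points in Actin-RFP ESCs.

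Levels from 30% to 70% were found in 8 of the 9 promoter windows (88.9%) in Gjb2-35delG ESCs, 4 (44.4%) in Actin-RFP ESCs and 8 (88.9%) in MEF. Over the genome these shares were 39.8% in Gjb2-35delG ESCs, 60.1% in Actin-RFP ESCs and 18.6% in MEF. In the promoter windows Gjb2-35delG ESCs ran from 42.4% to 80.0%, Actin-RFP ESCs from 22.2% to 32.4% and MEF from 27.04% to 66.3%. The 80.0% in Gjb2-35delG ESCs, at chr12:109541601-109541800, came from 5 calls on 1 cytosine. In Actin-RFP ESCs the window chr12:109541401-109541600 had 9 calls on 1 cytosine. Actin-RFP ESCs were below Gjb2-35delG ESCs in all 9 windows, and the windows' ranges did not overlap. Being below was common everywhere: Actin-RFP ESCs were at or above Gjb2-35delG ESCs in only 5.58% of windows in the genome. The 2 windows at the start itself, chr12:109540801-109541000 and chr12:109541001-109541200, were the lowest in Gjb2-35delG ESCs, at 47.8% and 42.4%. The same windows were at 32.4% and 31.3% in Actin-RFP ESCs, against 60.4% and 47.4% in MEF. The next window, chr12:109541201-109541400, was at 69.1% in Gjb2-35delG ESCs, 24.1% in Actin-RFP ESCs and 27.04% in MEF, with 62, 63 and 113 calls. The intervals of Gjb2-35delG ESCs and MEF overlapped in the other 8 promoter windows, or 88.9% of the 9, against 83.3% in the genome.

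The gap between the ESC lines thus differed along these 15 kb. As a mean over windows, Actin-RFP ESCs minus Gjb2-35delG ESCs was -11.7 points at the IG segment and -32.2 points at the Meg3 promoter. At the promoter it was closer to the gap over the domain. From pooled calls the intervals of this gap were -14.7 to -8.88 points at the IG segment and -30.5 to -19.8 points at the promoter. Relative to MEF, Gjb2-35delG ESCs were 22.9 points lower at the IG segment and 9.45 points higher at the Meg3 promoter, as means over windows, or 5.37 points higher there without that 1 window. Relative to MEF, Actin-RFP ESCs were 34.6 points lower at the IG segment and 22.7 points lower at the Meg3 promoter.

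On the Dlk1 side Gjb2-35delG ESCs were above MEF by window means, and both were below their means over the domain. The 189 windows left of Dlk1 averaged 70.4% (SD 17.6) in Gjb2-35delG ESCs, 43.1% (SD 17.7) in Actin-RFP ESCs and 64.9% (SD 27.6) in MEF. Windows at least 30 points above MEF made up 16.4% of them in the Gjb2-35delG line, against 2.58% of the genome. In the Actin-RFP line they made up 1.59%, against 0.279% of the genome. At the left edge, the CpG-dense window chr12:109400401-109400600 was at 86.7% in Gjb2-35delG ESCs, 64.2% in Actin-RFP ESCs and 54.7% in MEF. The Dlk1 gene body averaged 62.2% (SD 22.8, 39 windows) in Gjb2-35delG ESCs, 35.0% (SD 17.8) in Actin-RFP ESCs and 55.5% (SD 25.5) in MEF. From pooled calls Gjb2-35delG ESCs were not above MEF there, at 57.8% against 61.0% (difference interval -6.48 to 0.002 points). The 4 windows at the Dlk1 start averaged 28.8% (SD 31.96) in Gjb2-35delG ESCs, 4.29% (SD 2.36) in Actin-RFP ESCs and 16.9% (SD 15.2) in MEF. From pooled calls this order was not kept: the methylated share was 12.9% (9.37 to 17.6) in Gjb2-35delG ESCs, 2.83% (1.78 to 4.49) in Actin-RFP ESCs and 19.7% (14.7 to 25.9) in MEF.

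The transcribed part of the domain was high in MEF and lower in both lines. The Meg3 gene body averaged 73.2% in Gjb2-35delG ESCs, 45.1% in Actin-RFP ESCs and 80.2% in MEF, over 112 windows. Rtl1 averaged 75.2% in Gjb2-35delG ESCs, 47.7% in Actin-RFP ESCs and 81.1% in MEF, over 151 windows that it partly shares with Meg3 and Rian. Rian averaged 70.6% in Gjb2-35delG ESCs, 42.6% in Actin-RFP ESCs and 83.2% in MEF, over 211 windows. Among the gene bodies Rian was the one furthest below MEF in both lines. The snoRNA genes lie in a stretch that averaged 74.9% in Gjb2-35delG ESCs, 46.4% in Actin-RFP ESCs and 88.8% in MEF, over 216 windows. Mirg averaged 75.2% in Gjb2-35delG ESCs, 47.5% in Actin-RFP ESCs and 84.1% in MEF, over 54 windows.

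The microRNA cluster from Mir379 to Mir410 was more methylated than Meg3, Rtl1, Rian, the snoRNA stretch and Mirg in each library. It averaged 78.0% (SD 10.95, 153 windows) in Gjb2-35delG ESCs, 54.1% (SD 13.7) in Actin-RFP ESCs and 89.8% (SD 7.73) in MEF. Levels from 30% to 70% were found in 18.95% of its windows in Gjb2-35delG ESCs, 82.4% in Actin-RFP ESCs and 1.96% in MEF. Over the genome these shares were 39.8%, 60.1% and 18.6% in the same order. The 44 windows that hold a hairpin averaged 79.0% in Gjb2-35delG ESCs, 54.8% in Actin-RFP ESCs and 90.6% in MEF. The other 109 averaged 77.6% in Gjb2-35delG ESCs, 53.9% in Actin-RFP ESCs and 89.6% in MEF, so hairpin windows lay within 2 points of their neighbours in each library.

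The 60 microRNA genes of the domain give 112 mature microRNAs in RefSeq. Of these genes 57 are on the plus strand and 3 on the minus strand, and 38 lie from Mir379 to Mir410. Members at the start of the cluster share seeds (bases 2 to 8, in capitals), which is why the following 4 are shown, 5′ to 3′.
mmu-miR-379-5p: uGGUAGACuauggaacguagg
mmu-miR-1193-5p: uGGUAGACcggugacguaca
mmu-miR-379-3p: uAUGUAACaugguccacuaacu
mmu-miR-411-3p: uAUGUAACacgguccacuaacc

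miR-379-5p and miR-1193-5p share GGUAGAC, and miR-379-3p and miR-411-3p share AUGUAAC. The window of the miR-379 hairpin was at 86.7% in Gjb2-35delG ESCs, 66.6% in Actin-RFP ESCs and 98.6% in MEF. That of miR-1193 was at 78.6% in Gjb2-35delG ESCs, 47.6% in Actin-RFP ESCs and 92.0% in MEF. That of miR-411-3p was at 92.5% in Gjb2-35delG ESCs, 66.7% in Actin-RFP ESCs and 95.7% in MEF. The windows of miR-379 and miR-1193 thus differed in level in each library, while those of miR-379 and miR-411-3p were nearly alike in Actin-RFP ESCs. Each of these levels came from 1 window, and all had the same order of libraries.

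Past the 3′ end of Mirg, the CpG-dense window chr12:109749801-109750000 was at 25.3% in Gjb2-35delG ESCs (171 calls), 17.4% in Actin-RFP ESCs (147 calls) and 1.05% in MEF (101 calls). It was the only one of the 22 CpG-dense domain windows, counted as at least 10 CpGs in any library, that was below 2% in MEF and above 10% in both ESC lines, and it is named for that after its values were seen. The most methylated dense window of Actin-RFP ESCs was chr12:109593601-109593800, inside Rtl1, at 90.9% in Gjb2-35delG ESCs, 83.4% in Actin-RFP ESCs and 98.4% in MEF. Dio3, outside the flanks, was low in all 3, at 16.9% (SD 13.9, 9 windows) in Gjb2-35delG ESCs, 7.23% (SD 4.99) in Actin-RFP ESCs and 10.02% (SD 7.28) in MEF.

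Transcripts of the domain were also measured in single cells of E4.0 blastocysts that held injected ESCs, where RFP marks the Actin-RFP line and GFP the host. The cells of a colour form 1 sample here, since the labels name no embryo, so no test was made. Rtl1 had 2219 reads, or 7.13 CPM (reads scaled to the group's total, exact Poisson interval 6.84 to 7.43), in 55 RFP cells, against 0 reads in 40 GFP cells, where 3 reads would be 0.0134 CPM. It was found in 11 of the 55 RFP cells, at 0.420 to 125 CPM in those cells. Dlk1 had 162 reads in 2 of 55 RFP cells, at 15.6 and 6.46 CPM, against 0 reads in GFP cells. Dio3 had 32 reads in 1 RFP cell, against 0 reads in GFP cells. Reads of these 3 genes were found in a minority of RFP cells and in no GFP cell. The share of all genes with reads in only 1 of the groups was not computed. For Dlk1 and Dio3, found in 2 and 1 of 55 RFP cells, absence from 40 GFP cells cannot be read as a difference. Outside the domain, Degs2 (486 reads) and Slc25a47 (32 reads) were found in 1 GFP cell each and in 0 RFP cells. Wdr25, Evl, Wars and Yy1, also outside it, had reads in both groups. The counting is not known to use strand, so Rtl1 and its antisense microRNA transcript cannot be told apart. Meg3, Rian and Mirg were not found by name among the 13927 genes of the expression data.

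Transcripts of proteins that guard imprints were found in both kinds of cells. Zfp57, which binds methylated imprinted regions, was at 63.8 CPM in RFP cells (41 of 55 cells with a read), against 3.93 CPM in GFP cells (14 of 40). Zfp445, which also binds imprinted regions, was at 54.04 CPM in RFP cells (29 of 55) and 63.8 CPM in GFP cells (30 of 40). Of its reads in GFP cells, 30.9% came from 1 cell. Trim28, the corepressor shared by Zfp57 and Zfp445, was at 382 CPM in RFP cells (50 of 55) and 147 CPM in GFP cells (37 of 40). Dppa3, a maternal factor that protects methylation in the zygote, was at 165 CPM in RFP cells (55 of 55) and 4750 CPM in GFP cells (40 of 40). Dnmt1 was at 83.1 CPM in RFP cells (44 of 55) and 23.1 CPM in GFP cells (20 of 40).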

How the data were processed

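Bisulfite libraries of Gjb2-35delG ESCs, Actin-RFP ESCs and MEF were analysed, 1 library per group. Per the labels' protocols, sheared DNA was bisulfite converted and adapters were ligated to single strands. No source used here names the aligner, methylation caller or filters. The build is mm10, per the submitters' processing notes. The authors deposited, for each 200 bp window, a methylation fraction averaged over its CpG cytosines, the counts of methylated and unmethylated calls, and the number of CpG cytosines with calls, which had at least 5 calls each in the values. Both strands are counted, so 20 cytosines stand for 10 CpGs. Windows belonged to a region where their centre lay in it. The authors also deposited a single-cell expression signal, read counts divided by 1 factor per cell; reads were recovered as whole numbers for 100% of values within 0.01 and summed per group as CPM.

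Region levels, pooled shares with Wilson and Newcombe intervals (scipy 1.17.1) and counts past limits of 30% to 70% and of 30 points were computed in Python 3.11.15, and the code was checked on simulated data. PCR duplicates are not known to be removed, so intervals cover counting error only. Named genes were all annotated genes of the domain, with microRNAs named where the results turn on their cluster. Gene positions and sequences came from RefSeq tables of GRCm38.p6. The domain, segments, limits and gene lists were chosen with earlier results of these data known. Alternatives were pooled calls, filters on calls and CpGs, other limits, other promoter and IG segment sizes and other flanks.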

Additional observations from a re-analysis of the deposited data

Results flagged for a closer look

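Among the named segments, 2 had the ESC lines on opposite sides of MEF, each by more than its counting interval, and the difference between the lines was not tested, since each has 1 library. At the Meg3 promoter the mean difference from MEF was 9.45 points in Gjb2-35delG ESCs and -22.7 points in Actin-RFP ESCs. Without the window chr12:109541201-109541400 the pooled difference there was 1.58 points (-4.24 to 7.38) in Gjb2-35delG ESCs, no longer beyond its interval. In the part of the domain left of Dlk1 it was 5.51 points in Gjb2-35delG ESCs and -21.8 points in Actin-RFP ESCs. Single 10 kb bins also had Gjb2-35delG ESCs above MEF, 8 of 36 in the domain, and Actin-RFP ESCs below. The ESC lines differ in their level over the whole genome, and the part of that in these differences was not tested.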

How the results depend on the processing

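Of 92 alternative values for 21 results, 65 stayed within the counting interval, or for shares within 1.5 times, of the reported value, and 39 of 40 differences from MEF kept their sign. The exception was Gjb2-35delG ESCs at the Meg3 promoter, at -7.88 points with 2000 bp on either side, where Actin-RFP ESCs were at -30.5 points. With windows of at least 3 CpGs, the difference from MEF in Gjb2-35delG ESCs was -4.65 points in the domain, -5.80 points from Dlk1 to Meg3 and -19.9 points in the IG segment, and that in Actin-RFP ESCs was -30.7 points in the domain. With pooled calls this last value was -32.1 points. The domain minus the flanks was 3.20 and 6.65 points in Gjb2-35delG ESCs with flanks of 250 and 1000 kb, and 5.11 and 5.25 points in Actin-RFP ESCs. In MEF it was -2.08 points with flanks of 1000 kb and 0.23 points with at least 15 calls per window. In Actin-RFP ESCs it was 2.28 points over windows covered in that library. Windows lower than MEF in the domain were 4.89% in Gjb2-35delG ESCs with at least 3 CpGs, 22.6% with a limit of 20 points and 3.14% with 40 points, and 39.96% in Actin-RFP ESCs with 40 points. From 40% to 60%, the domain held 12.5% of windows in Gjb2-35delG ESCs, 44.96% in Actin-RFP ESCs and 9.19% in MEF, against 17.5%, 33.5% and 8.08% in the genome. Without the window furthest above MEF, an alternative chosen after seeing the data, the difference at the Meg3 promoter was 5.37 points in Gjb2-35delG ESCs and -25.2 points in Actin-RFP ESCs. The cause was not tested.

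Depth limits single windows, which held as few as 5 calls. No paired analysis was possible because each group has 1 library. With 1 library a group, differences between lines, passages and genotypes cannot be told apart.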
